A study of Mus musculus with 2 samples.

Results

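Pericytes of the mouse mammary gland were sought among single-cell libraries that had been enriched for another cell type. A barcode, which stands for a droplet with 1 or more cells, was chosen by its UMIs and counted as a pericyte when Kcnj8, Abcc9 and Higd1b together had at least 3 UMIs, Krt5 and Krt14 together had fewer than 10, and the 3 pericyte genes had more UMIs than the 3 smooth muscle genes Pln, Rergl and Nrip2. UMIs are unique molecular identifiers, each counting a captured RNA molecule once. Of 17677 barcodes with at least 1000 UMIs, at least 500 genes and at most 15% mitochondrial UMIs, 383 met the rule. They were 242 of 10015 in the library labelled WT (2.42%, 95% Clopper-Pearson interval 2.12 to 2.74%) and 141 of 7662 in the library labelled Fgd5-ko (1.84%, 1.55 to 2.17%). The order of the shares turned with the limits, to 1.16% and 1.37% with at least 5 pericyte UMIs and to 2.77% and 3.27% among barcodes of 4000 to 12000 UMIs. Vascular smooth muscle, the nearest relative, was taken as Pln, Rergl and Nrip2 with at least 3 UMIs together and more than the pericyte genes. It held 91 and 70 barcodes.

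The study prepared mammary gland cells of C57BL/6 mice by a gate on high CD24 with CD29, a gate in common use for mammary epithelium, and read them by 10x 3′ sequencing of polyadenylated RNA. It has 1 library with the genotype label WT and 1 with the genotype label Fgd5-ko, a knockout of a gene for an activator of the small GTPase Cdc42. The sample titles also carry the abbreviations P4 and cko, which no label explains, and neither the age nor the number of animals is given. With 1 library a group there is no replicate, so no test between the libraries was possible, and every interval printed is a 95% interval for counting error only.

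Pericytes are mural cells: they sit on capillaries and small venules inside the basement membrane that they share with the endothelium. They are recruited by platelet-derived growth factor through its receptor Pdgfrb, and they take part in vessel stability, in capillary tone and in the making of matrix. Smooth muscle cells wrap larger vessels, are related to pericytes and carry a full contractile apparatus, and the step from one to the other along a vessel is gradual. Kcnj8 and Abcc9 encode the pore (Kir6.1) and the regulatory subunit (SUR2) of a potassium channel closed by ATP, and they are neighbours in the genome with 0 RefSeq genes wholly between them. Higd1b encodes a small mitochondrial protein.

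Paired values below are given for the library labelled WT first and the library labelled Fgd5-ko second, and levels are CPM, the UMIs of a gene over all barcodes of a class divided by all UMIs of the class and scaled to 1000000. The libraries differed in depth, with a median of 4970 and 15454.5 UMIs over all passing barcodes and 5689 and 11692 over pericytes. Of the 383 pericytes, 0 were in the authors' deposited table of t-SNE positions, which lists 6525 and 6036 of the passing barcodes, and 0 shared a barcode sequence with the other library, as 29 passing barcodes did. Fgd5, the gene named by the genotype, went against its label: it was at 43.5 CPM (33.5 to 55.7) and 64.98 CPM (54.2 to 77.3) in pericytes and at 93.7 and 117 CPM in endothelial barcodes, so the libraries are named by their labels throughout. The labels do not say which part of the gene was deleted, and counts from the 3′ end check nothing if that end was kept. Doublets were not called and remain among the barcodes.

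The promoters of the genes that lead the description are printed first, as the 250 bases before the annotated start in RefSeq (build GRCm38.p6), 5′ to 3′ on the gene's strand. Kcnj8 (ENSMUSG00000030247) heads the pericyte rule, and its window is chr6:142571615-142571864 on the minus strand. Rgs5 heads 1 of 2 pericyte states described further on, and its window is chr1:169655251-169655500 on the plus strand.
Kcnj8: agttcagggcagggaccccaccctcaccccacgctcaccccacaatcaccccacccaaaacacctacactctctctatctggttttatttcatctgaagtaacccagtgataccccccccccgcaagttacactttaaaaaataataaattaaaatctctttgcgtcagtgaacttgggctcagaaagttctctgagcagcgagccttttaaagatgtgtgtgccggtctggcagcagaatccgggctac
Rgs5: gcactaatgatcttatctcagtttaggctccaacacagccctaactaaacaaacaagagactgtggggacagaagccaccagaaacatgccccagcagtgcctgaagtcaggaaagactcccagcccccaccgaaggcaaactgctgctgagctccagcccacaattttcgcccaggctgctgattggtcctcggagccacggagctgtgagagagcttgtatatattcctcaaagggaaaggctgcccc
Motif matches would stand in capitals, and neither window holds one. The letters searched, on both strands, were the CArG box of serum response factor (CC and GG around 6 bases of which at least 5 are A or T), TGGGAA and TATAAA, which 8.65%, 21.5% and 13% of 27025 RefSeq promoter windows of the same length hold. A missing match says only that these letters are not in these 250 bases. Of 8 genes of the rules and markers looked up, 6 had an entry; Higd1b and Nrip2 did not. Among the 27 contractile genes listed for the comparison with smooth muscle, 22 had an entry and 6 of these (27.3%) held a CArG box. Acta2 holds CCCTATATGG at 84 to 75 bases before its start and CCTTGTTTGG at 34 to 25, and Myl9 holds CCTAATAAGG at 161 to 152 and CCTTGTAAGG at 99 to 90. A match is a description of the letters, not a bound site.

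The rule's own genes describe the members and test nothing. Kcnj8 was at 285 CPM (258 to 314) and 266 CPM (243 to 289) in pericytes, Abcc9 at 379 CPM (348 to 413) and 283 CPM (260.4 to 308) and Higd1b at 209 CPM (187 to 234) and 85.5 CPM (72.98 to 99.4). In smooth muscle the same genes were at 4.17 and 2.08, 2.08 and 4.17 and 91.7 and 52.1 CPM. Higd1b was thus the rule gene that smooth muscle also carried. At least 1 UMI of Kcnj8 was in 178 of 242 and 122 of 141 pericytes, of Abcc9 in 211 and 121, and of Higd1b in 142 and 53. The summed pericyte UMIs had a lowest, median and highest value of 3, 4 and 16 under the WT label and of 3, 6 and 39 under the Fgd5-ko label. Exactly 3 UMIs, just inside the limit, were in 79 and 20 barcodes, and 95 and 40 barcodes with 2 UMIs lay just outside it. Another 22 and 32 barcodes missed the rule through their keratin UMIs alone.

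The label was borne out only in part. Markers of other cell types were abundant in many members, and the sum of the endothelial genes Pecam1, Cdh5 and Emcn was 10 or more in 72 of 242 and 69 of 141 barcodes and 0 in 71 and 61. The barcodes were therefore divided by limits chosen after the data were seen. Endothelial-bearing barcodes had at least 5 of those endothelial UMIs and numbered 134 and 74. Stromal-bearing barcodes had at least 10 UMIs of Dcn and Cxcl13, which encode the matrix proteoglycan decorin and a B cell chemokine, and numbered 34 and 44. Barcodes that met both limits numbered 2 and 1, and barcodes that met neither, called the neither set, numbered 72 and 22. The limits are raw counts not scaled to depth, so a given count is a larger share of a shallow barcode. In the neither set a barcode held up to 4 and 2 of the endothelial UMIs and up to 8 and 6 of Dcn and Cxcl13. Median depth was 3589 and 8471 UMIs in the neither set, 6376.5 and 15265 in the endothelial-bearing set and 5599.5 and 11168 in the stromal-bearing set.

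**Figure D1:**
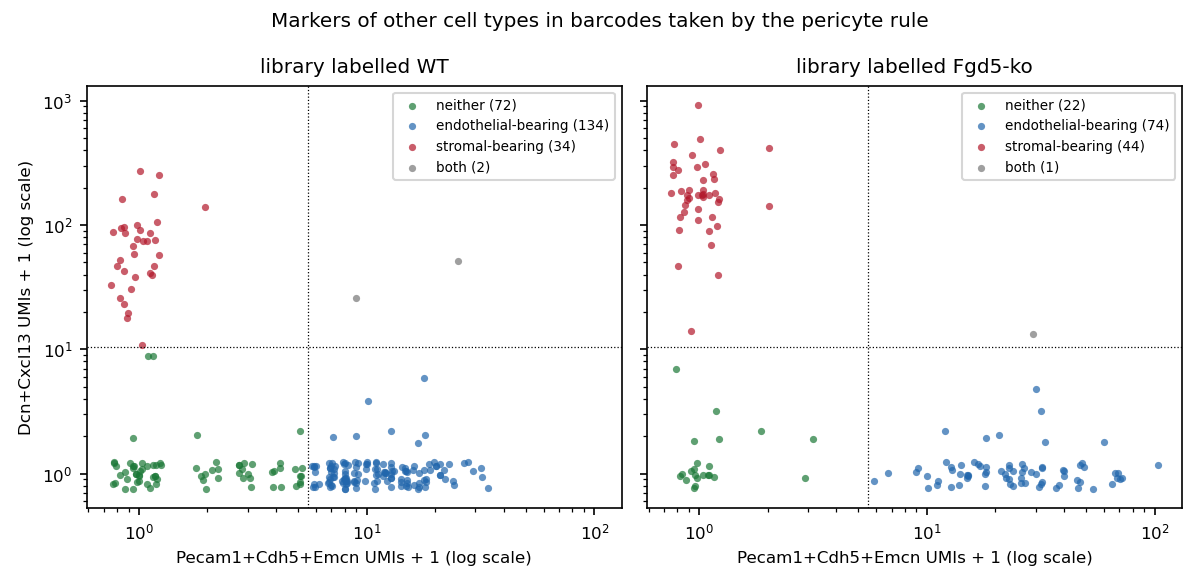
Each point is a barcode taken by the pericyte rule, with its UMIs of Pecam1, Cdh5 and Emcn on the x axis and of Dcn and Cxcl13 on the y axis, both plus 1 on log scales, and dotted lines at the limits of 5 and 10 UMIs. Most stromal-bearing barcodes (34 and 44) lie high on the y axis with few endothelial UMIs, the endothelial-bearing barcodes (134 and 74) the other way round, and only 2 and 1 barcodes have both.

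The 10 endothelial markers of the fixed list summed to 4943 and 4380 CPM over all pericytes, to 2428 and 438 CPM in the neither set and to 7974 and 8511 CPM in the endothelial class. The 8 fibroblast markers summed to 6325 and 7171 CPM over all pericytes, 1822 and 1645 CPM in the neither set and 34506 and 32629 CPM in the fibroblast class. Both lists were thus present above a trace, also in the neither set. The 6 lymphatic endothelial markers were at 71.9 and 2212 CPM, the 8 myeloid markers at 36.6 and 756 CPM, and the 8 basal epithelial markers at 161 and 117 CPM against 7210.3 and 6245 CPM in the basal class. The myeloid sum was nearly all Cd14, and C1qb and Csf1r had at most 3 UMIs in a library. Luminal, Schwann, T and NK, B cell, adipocyte and erythroid lists each summed to at most 80.9 CPM in either library, and 3 of the 6 T and NK genes were at 0 UMIs in each library. Whether a barcode with markers of a second type holds 2 cells, RNA from the surrounding fluid or 1 cell with both was not tested.

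Of the markers that the rule did not use, Rgs5, Agt and Notch3 were in fewer stromal-bearing barcodes than in the neither and endothelial-bearing sets. These counts were not thinned to equal depth. Rgs5, a regulator of G protein signalling that marks mural cells, had a UMI in 52 of 72 and 17 of 22 barcodes of the neither set, but in 8 of 34 and 13 of 44 stromal-bearing barcodes. Agt, the angiotensin precursor, had one in 27 and 8 barcodes of the neither set and in 0 and 0 of the stromal-bearing set. Notch3, the mural Notch receptor, had one in 46 and 14 barcodes of the neither set and in 3 and 7 of the stromal-bearing set. Higd1b, a rule gene, was in 3 and 0 stromal-bearing barcodes, while Abcc9 was in 31 and 43 of them. Pdgfrb did not follow them: it was in 15 of 34 and 21 of 44 stromal-bearing barcodes against 36 of 72 and 17 of 22 in the neither set, and fibroblasts held it too, at 86.8 and 94.6 CPM. The stromal-bearing set was thus chosen mainly through the channel genes, lacks Agt and is called stromal-bearing from here on. The endothelial-bearing set had Rgs5 in 94 of 134 and 51 of 74 barcodes, Agt in 48 and 37 and Notch3 in 84 and 48. Its median depth was 6376.5 and 15265 UMIs against 3589 and 8471 in the neither set. The 74 also include 13 barcodes, described further on, with 0 UMIs of Agt and Notch3. Whether these 2 sets are alike at equal depth was not tested.

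The genes of the 2 gate proteins, CD24 and CD29, went different ways against basal epithelium. Cd24a, the gene of CD24, was at 82.9 and 36.8 CPM in pericytes and 146 and 116 CPM in basal epithelium. Epcam, the epithelial adhesion molecule and not part of the stated gate, was at 13.1 and 3.07 and at 354 and 406 CPM. Itgb1, the gene of CD29, was at 573 and 447 CPM in pericytes and 444 and 377 CPM in basal epithelium, so of the gate's genes Itgb1 was at least as high in pericytes and Cd24a was not. The wider sort gate list of 8 surface genes summed to 2447 and 2450 CPM in pericytes and 970 and 912 CPM in basal epithelium.

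**Figure D2:**
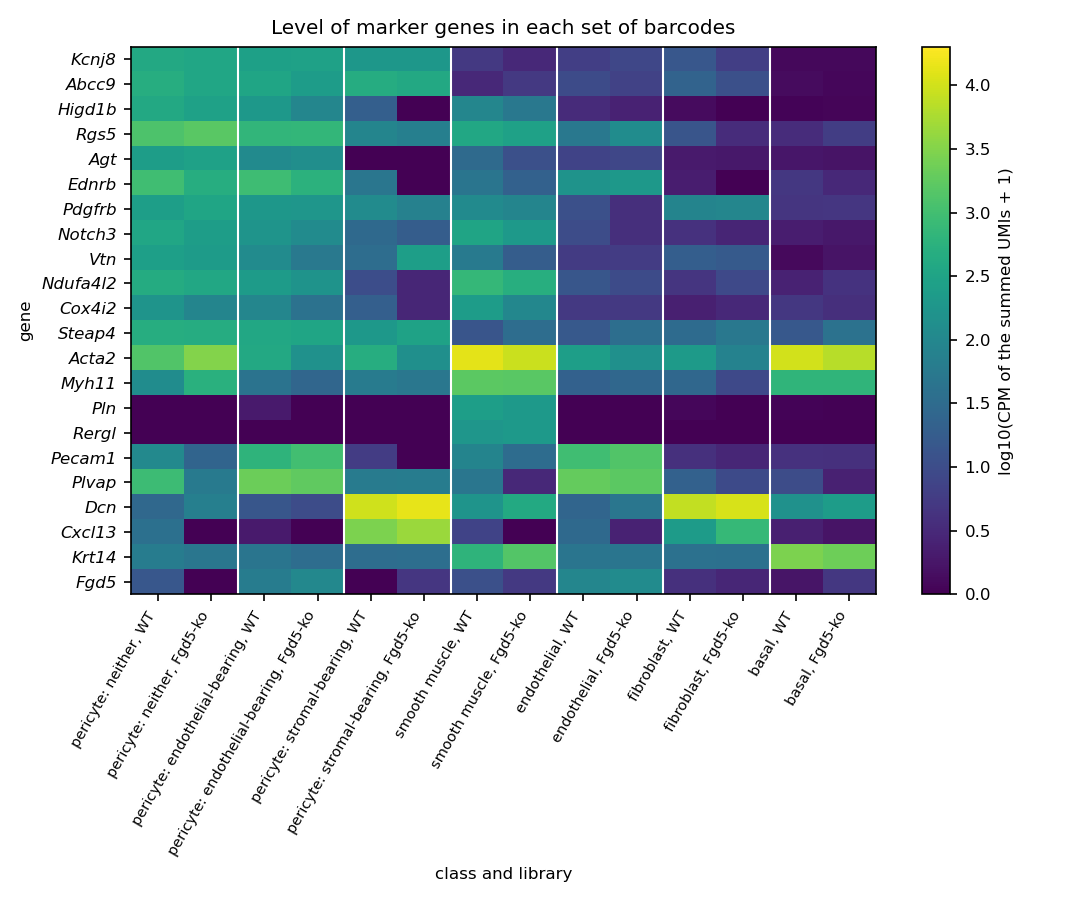
Colour gives the level of each gene (y axis) as log10 of CPM plus 1 in each set of barcodes and library (x axis). Kcnj8 and Abcc9 are bright in all pericyte sets, Agt is at 0 CPM in the stromal-bearing set, and Acta2 is brightest in smooth muscle and basal epithelium.

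The 2 markers that the rule did not use were then compared at equal depth. With each barcode thinned to 2000 UMIs, which left out 9 and 1 pericytes, Rgs5 had a UMI in 45.5% and 40% of pericytes and Agt in 16.3% and 8.57%. Fibroblasts, which should lack both genes, had Rgs5 in 0.795% and 0.457% and Agt in 0% and 0.228% at the same depth, with medians before thinning of 6558.5 and 12825 UMIs against 5763 and 11713 in pericytes. Endothelial barcodes had Rgs5 in 5.85% and 17.1%. Smooth muscle came nearest, with Rgs5 in 34.4% and 31.4% and Agt in 7.78% and 1.43%. Without thinning the pericyte shares were 64.5% and 58.2% for Rgs5 and 31.4% and 31.9% for Agt.

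Against smooth muscle, the pericyte barcodes had far less of the contractile apparatus and more of Agt, Agtr1a, Enpep and Ednrb. Several fibrillar matrix and chemokine genes were also higher. Fibroblasts held many of these too, and the part of fibroblast RNA in them was not tested. Genes that averaged 50 CPM or more over the 4 sums entered this comparison, apart from the rule genes. A gene was called when it differed at least 2-fold the same way in both libraries. The average can reach 50 CPM through 1 class alone, and calls of such genes are descriptions, not tests. Of 2757 genes, 274 (9.94%) were higher and 170 (6.17%) lower in pericytes, and the median log2 ratio was 0.03. The same comparison between the neither sets of both classes called 164 of 2567 genes higher (6.39%) and 142 lower (5.53%), with a median of 0.01. These sets hold 68 and 44 smooth muscle barcodes; among all 91 and 70, at least 5 endothelial UMIs were in 8 and 3, at least 10 UMIs of Dcn and Cxcl13 in 1 and 9 and at least 10 keratin UMIs, which the pericyte rule bars, in 16 and 23. Of the higher genes, 98 were shared by both comparisons, 35.8% of the first list and 59.8% of the second. Of the lower genes, 79 were shared, 46.5% and 55.6% of the lists. Ratios below are log2 ratios of CPM, pericytes over smooth muscle, with the neither sets named where they are meant.

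Leading the higher genes over all members were Cxcl13, Plvap, Lrg1, Cxcl9, Cxcl10, Sfrp2, Cyp26b1, Dusp2, H2-M9, Gimap5, Kdr and Ctla2a. Several of them are known from endothelium or stroma: Plvap forms the diaphragms of endothelial pores, and Kdr is the endothelial VEGF receptor. Kdr was at 342 and 393 CPM in all pericytes, 139 and 17.8 CPM in the neither set and 404 and 589 CPM in the endothelial class. Cxcl13 was at 2879 and 4544 CPM in the stromal-bearing set and at 38.1 and 0 CPM in the neither set. Only 4 of the 12 were abundant enough to be tested in the neither sets, and these 4 were called there as well. These 4 were Plvap, Cxcl10, Cyp26b1 and H2-M9. Cyp26b1, which breaks down retinoic acid, was at 166 and 130.2 CPM in the neither set against 8.17 and 10.4 CPM in endothelium and 8.29 and 4.97 CPM in fibroblasts, so it did not go with the other types' markers, and H2-M9 was also low in both. The other 8 had too few UMIs in the neither sets, and the part of other types' RNA in them was not tested. Ratios in the neither sets are therefore the main values from here on.

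In those sets the leading higher genes were Ccl11, H2-M9, Ccl2, Plvap, Gpx3, Nr1h3, Ifitm1, Steap4, Ifi47, Cxcl10, Oaf and Rbp7. Steap4, a metalloreductase, was at 471 and 456 CPM in the neither set and 15.9 and 15.97 CPM in the matching smooth muscle, with ratios of 4.89 (3.5 to 6.78) and 4.83 (3.55 to 6.5). Nr1h3, the liver X receptor alpha that controls cholesterol genes, was at 222 and 178 against 11.9 and 3.19 CPM. Both genes were low in endothelium and fibroblasts, where Steap4 was at 14.8 and 34.9 and 31.5 and 50.8 CPM and Nr1h3 at 12.7 and 19.8 and 13.4 and 24.9 CPM. Plvap was at 876 and 59.2 CPM in the neither set, where the endothelial list also stood higher in the library labelled WT. H2-M9, a nonclassical MHC class I gene of a multigene family whose reads may be shared between copies, had ratios of 6.08 (4.2 to 9.13) and 7.33 (4.82 to 12.65).

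Of the 22 mural identity genes, 19 were tested in the neither sets, 7 were higher and 3 lower, with a median of 0.59. Rgs5 was at 1268 CPM (1141 to 1404) and 1603 CPM (1418 to 1806) in pericytes and at 422 and 303 CPM in smooth muscle, ratios of 1.59 (1.27 to 1.91) and 2.4 (2.06 to 2.75). Agt was at 242 CPM (189 to 306) and 289.9 CPM (214 to 383) against 39.8 and 15.97 CPM, ratios of 2.61 (1.64 to 3.73) and 4.18 (2.86 to 5.87). Their direction was the same over all members, at 0.93 and 1.07 for Rgs5, which missed the 2-fold limit in the library labelled WT, and 2.07 and 3.37 for Agt. Vtn, which encodes vitronectin, had ratios of 1.46 and 2.68, Art3, an ADP-ribosyltransferase family member, 3.45 and 3.59, and Cygb, cytoglobin, 2.03 and 2.14. Colec11, a collectin, was at 76.2 and 289.9 CPM in pericytes and 0 and 0 CPM in smooth muscle.

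Pdgfrb and Notch3, both widely used mural markers, did not reach the 2-fold limit. Pdgfrb was at 256 and 337 CPM in pericytes and 139 and 176 CPM in smooth muscle, ratios of 0.88 (0.28 to 1.5) and 0.94 (0.38 to 1.5). Notch3 was at 349.8 and 243 against 446 and 351 CPM, ratios of -0.35 and -0.53. Cspg4, which encodes the NG2 proteoglycan, was at 27.7 and 47.3 against 63.7 and 95.8 CPM and was lower in pericytes, with ratios of -1.2 (-2.63 to 0.11) and -1.02 (-2.35 to 0.14) that rest on few UMIs and reach past 0. Ndufa4l2 and Pcp4l1, both often listed for mural cells, were also lower, at -1.2 and -1.28 and at -2.34 and -2.15.

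On the lower side, P2rx1, Map3k7cl, Tesc, Krt15, Il17b, Myh11, Rgs7bp, Fbxl22, Acta2, Epcam, Lgals7 and Pgf led over all members. Krt15, Epcam and Lgals7 are epithelial genes, and the keratin limit applied to pericytes alone. In the neither sets P2rx1, Bcas3, Rgs7bp, Map3k7cl, Pgf, Kcna5, Rbm24, Itga8, Fam81a, Kcnab1, Sorbs2 and Slc38a11 led, and of the first 12 genes 10 were tested there and 8 called lower.

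The contractile list was the clearest contrast. Of its 27 genes, 23 were tested; 18 were lower and 0 higher over all members, with a median of -2.37. In the neither sets 15 of 23 were lower and 0 higher, with a median of -1.89. Acta2, smooth muscle actin, had a lowest, median and highest value of 0, 1 and 56 UMIs a pericyte under the WT label and of 0, 1 and 136 under the Fgd5-ko label, against 7, 63 and 216 and 5, 91.5 and 499 UMIs in smooth muscle. The medians lay far apart and the ranges overlapped. In the neither set 41 of 72 and 10 of 22 barcodes had 0 or 1 UMI of Acta2, and 13 and 11 had at least 10. Of the latter, 9 and 8 also had at least 3 UMIs of Rgs5, and 3 and 1 at least 3 of Agt and Ednrb. Basal epithelium held 10285 and 6909.8 CPM of Acta2, and the basal markers summed to 225 and 166 CPM in the neither set.

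As class levels, Acta2 was at 1354 and 3118 CPM in the neither set and 16703 and 10765 CPM in smooth muscle, ratios of -3.62 (-3.78 to -3.47) and -1.79 (-1.92 to -1.65). Tagln, an actin-binding protein of smooth muscle, had ratios of -3.21 and -1.66, Myh11, its myosin heavy chain, -4.22 and -2.21, Myl9, a regulatory light chain, -2.77 and -1.8, and Lmod1, a filament nucleator, -3.12 and -1.26. All 5 genes were nearer to smooth muscle in the library labelled Fgd5-ko, where the neither set has 22 barcodes. Acta2 was uneven over these 22, with a lowest, median and highest value of 0, 7.5 and 136 UMIs. The barcode with 136 had 0 UMIs of Rgs5, Agt and Ednrb, and the part of single barcodes in these ratios was not tested. Over all members the Acta2 ratios were -4.45 and -4.48, so that this gap between the libraries was not seen over all members. Des, the intermediate filament desmin, and Synpo2 did not reach the limit, at -0.69 and -0.68 and 0.25 and 1.3.

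**Figure D3:**
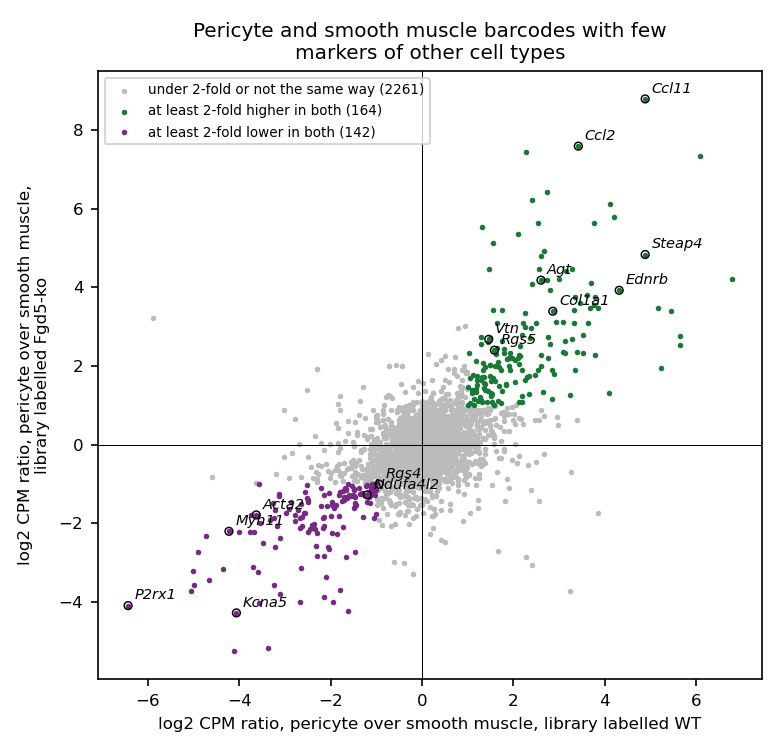
Log2 CPM ratio of pericytes over smooth muscle in the neither sets, library labelled WT on the x axis and library labelled Fgd5-ko on the y axis, with 1 point for each of 2567 genes. The 164 genes that were higher in both libraries include Agt, Ednrb, Steap4 and Ccl11, and the 142 lower ones include Acta2, Myh11, P2rx1 and Kcna5.

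Receptors for vasoactive signals were divided between the classes. Ednrb, the endothelin receptor that binds all endothelins alike, was at 952 CPM (843 to 1072) and 485 CPM (386 to 602) in the neither set and 47.8 and 31.9 CPM in smooth muscle, ratios of 4.32 (3.49 to 5.29) and 3.93 (2.97 to 5.04). Ednra, the receptor of vascular smooth muscle contraction, was at 145 and 172 against 139 and 156 CPM, ratios of 0.06 and 0.13, although over all members it was lower at -1.06 and -1.03. Endothelium also carried Ednrb, at 161 and 196 CPM, less than the neither set. P2rx1, the ATP-gated channel of smooth muscle, was at 3.46 and 0 CPM in pericytes and 299 and 303 CPM in smooth muscle, and its ratio was -6.43 in the library labelled WT and at most -4.10 in the other. S1pr3, a sphingosine-1-phosphate receptor, was lower at -3.47 and -2.5. Of 45 receptors listed, only 7 had enough UMIs to be tested in the neither sets, and 2 were higher and 2 lower.

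The few angiotensin genes that entered the comparison went one way. Of 4 of 11 genes abundant enough to test, 3 were higher in pericytes and 0 lower in both comparisons, with a median of 2.85 in the neither sets. Besides Agt, they were the receptor Agtr1a, at 236 and 148 against 27.9 and 28.7 CPM with ratios of 3.08 (1.96 to 4.45) and 2.36 (1.22 to 3.65), and Enpep, the aminopeptidase that shortens angiotensin II, at 274 and 183 against 27.9 and 28.7 CPM with ratios of 3.3 (2.19 to 4.66) and 2.67 (1.57 to 3.93). Agtr1a and Enpep were also present in fibroblasts, at 59.4 and 46.3 and 52.1 and 53.4 CPM, and Agt was not, at 1.02 and 0.89 CPM. Renin (Ren1), Agtr1b, Agtr2 and Mas1 each had under 20 UMIs over all pericytes.

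Ion transport genes followed the contractile list. Of 12 tested in the neither sets, 6 were lower and 0 higher. Kcna5, a voltage-gated potassium channel, was at 6.93 and 5.92 against 115 and 115 CPM, ratios of -4.06 and -4.28, and Atp2a2, the calcium pump of the sarcoplasmic reticulum, at 93.5 and 189 against 323 and 438 CPM. Kcnj11 and Abcc8, the pancreatic counterparts of Kcnj8 and Abcc9, had under 20 UMIs. Ano1, a calcium-activated chloride channel, was at 121 and 213 against 115 and 105 CPM and Kcnk3, a background potassium channel, at 118 and 88.8 against 99.5 and 51.1 CPM, and neither was called. Of 9 nitric oxide and cyclic GMP genes 1, the kinase gene Prkg1, was lower and 0 higher, and the guanylate cyclase subunit Gucy1a1 was at 312 and 811 against 414 and 1028 CPM.

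Signalling ligands and receptors differed gene by gene. Of 2 PDGF genes tested in the neither sets 0 were called either way, and of 6 Notch genes 1 was lower, Nrarp, a Notch target, at -2.4 and -2.05. Of 10 angiogenic ligand genes 3 were higher, Angptl2, Sema5a and Nrp1, and 1 was lower, Pgf. Nrp1, the neuropilin coreceptor of VEGF, was at 222 and 243 against 31.9 and 15.97 CPM and at 256 and 305 CPM in endothelium. Pgf, placental growth factor, was at 10.4 and 5.92 against 108 and 214 CPM, ratios of -3.37 and -5.18. Of 14 TGF beta and BMP genes 2 were higher and 0 lower: Fst, the activin antagonist follistatin, was at 447 and 319.5 against 0 and 83.03 CPM and Id4 at 187 and 704 against 59.7 and 128 CPM.

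Matrix genes were higher in pericytes mainly in the fibrillar list. Of 10 such genes tested in the neither sets 9 were higher and 0 lower, with a median of 2.81. Col3a1 was at 568 and 408 against 63.7 and 19.2 CPM, ratios of 3.16 and 4.41, and Col6a1 at 274 and 272 against 51.8 and 15.97 CPM, ratios of 2.4 and 4.09. Fibroblasts held 7397 and 6460.4 CPM of Col3a1, and the fibroblast list was present in the neither set at the level given above, so the part of fibroblast RNA in these values was not tested. Mgp, matrix Gla protein, was higher in the neither set than in fibroblasts: it was at 1337 and 822 CPM in the neither set, 104 and 47.9 CPM in smooth muscle and 127 and 569 CPM in fibroblasts. The basement membrane list was near even, with 2 of 11 genes higher (Nid1 and Sparc) and 2 lower (Lamb2 and Sparcl1), and Col4a1, a chain of its main collagen, at 561 and 325 against 338 and 389.6 CPM.

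Chemokine and interferon genes were also higher. Of 12 chemokine and cytokine genes tested in the neither sets 6 were higher and 0 lower, with a median of 1.42. Ccl11, eotaxin, was at 353 and 1414 against 0 and 3.19 CPM, with ratios of at least 4.89 and of 8.79. Ccl2, the monocyte chemokine, was at 128 and 615 against 11.9 and 3.19 CPM, and Cxcl12, which retains CXCR4-bearing cells, at 1292 and 361 against 123 and 70.3 CPM. Ccl2 and Ccl11 were at 1624 and 1237 and 463 and 664 CPM in fibroblasts, and Cxcl12 at 1623 and 1079 CPM in endothelium. Of 11 interferon and antigen presentation genes 8 were higher and 0 lower, with a median of 1.65. Ifitm3 had ratios of 1.48 and 1.75 and B2m 1.85 and 1.55. The 24 listed genes summed to 9652 and 8248 CPM in the neither set and to 14592 and 14242 CPM in endothelium. Fibroblasts held 8051 and 8335 CPM of them, and the part of such RNA in the neither set was not tested.

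The other lists had few calls, where 6.39% of all genes tested in the neither sets were higher and 5.53% lower. Of 9 hypoxia and glycolysis genes 0 were called in either direction, and of 25 immediate early genes 1 was higher (Myc) and 1 lower (Nr4a2). Of 17 mural transcription factors Prrx1 was higher, at 218 and 402 against 67.7 and 102 CPM, and Tbx2 and Zfhx3 were lower. Rgs16 stood beside Rgs5 as the other RGS gene that was higher, at 589 and 2142 against 111 and 28.7 CPM. Of the 8 brain pericyte transporters 6 had under 20 UMIs over all pericytes, and of the 24 S and G2/M phase genes 17 did. Slc38a11, an amino acid transporter, was the only transporter tested in the neither sets and was lower, at 3.46 and 17.8 against 91.6 and 89.4 CPM. Of 12 integrin and adhesion genes 1 was higher and 2 lower, of 7 adipogenic genes 2 were higher (Cd36 and Fabp5), and of 12 heat shock genes 1 was higher (Dnajb1). Cd36 was at 686 and 426 CPM in the neither set and higher in endothelium, at 1086 and 1432 CPM. Of 11 genes of the FGD family and Cdc42 pathway 1 was higher (Arhgdib). The 2 gap junction genes and the 3 genes of the sort gate list that were tested had 0 calls.

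The mitochondrial complex IV paralogs gave a pattern shared by both mural classes. Higd1b, a rule gene, Ndufa4l2 and Cox4i2 have widely expressed counterparts in Higd1a, Ndufa4 and Cox4i1. Ndufa4l2 was at 439.9 and 373 CPM in the neither set and 1007 and 904 CPM in smooth muscle, against 13.2 and 8.79 CPM in endothelium and 3.55 and 7.81 CPM in fibroblasts. Cox4i2 was at 169.7 and 88.8 and at 291 and 166 CPM in the mural classes, against 4.17 and 4.08 and 1.35 and 2.13 CPM. Ndufa4 differed far less, at 450.2 and 272, 601 and 367, 657 and 484 and 473 and 297 CPM in the same 4 classes, as was Cox4i1 at 613 and 869.8, 856 and 1134, 528 and 752 and 489 and 677 CPM.

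Within the pericytes, the balance of Rgs5 against Agt and Ednrb differed from barcode to barcode. This division was noticed in the data and the limits were set afterwards. A barcode was called Rgs5-led with at least 3 Rgs5 UMIs and more than of Agt and Ednrb together, and Ednrb/Agt-led in the opposite case. In the neither set 29 and 13 barcodes were Rgs5-led, 31 and 5 Ednrb/Agt-led and 12 and 4 undecided. Among endothelial-bearing barcodes, leaving out those with Cd14 and Glycam1 described further on, 57 and 28 were Rgs5-led, 69 and 31 Ednrb/Agt-led and 8 and 2 undecided. The states form a range: both sums were at least 3 in 7 of 72, 2 of 22, 32 of 134 and 28 of 61 barcodes of these 4 sets. Rgs5 was at 0 in 16 of 31, 3 of 5, 37 of 69 and 21 of 31 Ednrb/Agt-led barcodes. Agt and Ednrb were both at 0 in 18 of 29, 8 of 13, 17 of 57 and 3 of 28 Rgs5-led barcodes, so most Rgs5-led barcodes of the endothelial-bearing sets also had UMIs of the pair. The sums lay within 2 UMIs of each other in 6, 0, 13 and 8 barcodes. Median depth of Rgs5-led against Ednrb/Agt-led barcodes was 2828 against 4980 UMIs, 8591 against 8963, 5763 against 7215 and 11523 against 14814, lower in the Rgs5-led barcodes each time.

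Few other genes followed the division in all 4 sets. Of 2420 genes tested, 11 (0.455%) were at least 2-fold higher in Rgs5-led barcodes in every set and 23 (0.95%) lower, with a median of -0.02. The values are ordered as the neither sets of the libraries labelled WT and Fgd5-ko and then the endothelial-bearing sets. The higher genes were Ccl2, Ccl11, Cox4i2, Slc11a1, Tppp3, Myh11, Vtn, Lhfp, Ndufa4l2, Ednra and Ndrg2. Ccl2 was at 395 against 0 CPM, 1175 against 0 CPM, 269 against 32.7 CPM and 54.5 against 4.08 CPM. Cox4i2 was at 469.7 against 18.9 CPM, 147 against 0 CPM, 189.7 against 25 CPM and 119 against 8.17 CPM. Ndufa4l2 was at 843 against 239.6 CPM, 486 against 155 CPM, 366 against 137 CPM and 384 against 91.9 CPM. Several of these genes are carried by smooth muscle or fibroblasts as well, as given above, and the part of such RNA was not tested.

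On the Ednrb/Agt-led side stood Cck, Treml1, Slc9b2, Adgrg6, Gsta4, Cyp26b1, Ldhb, Coq8a, Mamdc2, Enpp2, Pth1r and Fst as the leading genes. Cck, which encodes the peptide cholecystokinin, was at 32.02 against 334 CPM, 0 against 332 CPM, 5.498 against 129 CPM and 2.59 against 257 CPM. Fst was at 128 against 687 CPM, 215 against 663 CPM, 159 against 604 CPM and 124 against 535 CPM. Ldhb, a lactate dehydrogenase subunit, was at 85.4 against 372 CPM, 90.4 against 884 CPM, 74.2 against 315 CPM and 80.4 against 488 CPM. Fst and Cck were low in endothelium, at 28.3 and 7.22 and 6.17 and 1.26 CPM. Of the rule genes, Kcnj8 was near even between the states, with log2 ratios of 0.25, -0.57, -0.17 and 0.77, while Higd1b was higher in Rgs5-led barcodes at 1.33, 0.94, 1.23 and 1.5. Acta2 did not keep a direction, at 1.97, 5.61, -0.69 and 0.83.

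**Figure D4:**
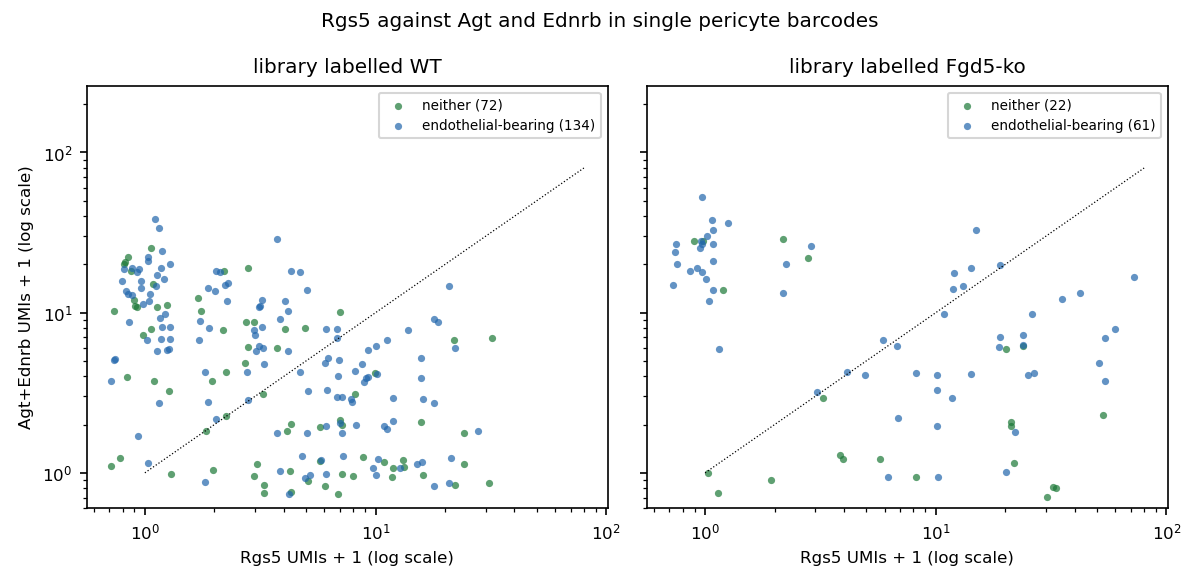
UMIs of Rgs5 (x axis) against UMIs of Agt and Ednrb (y axis), both plus 1 on log scales, with 1 point for each barcode of the neither set (72 and 22) and the endothelial-bearing set (134 and 61). Many barcodes lie along 1 axis or the other, and barcodes near the dotted line of equal UMIs fill part of the space between.

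The stromal-bearing set differed from the fibroblast class in several genes, some of which pericytes or endothelium also carried. Cxcl13 was at 2879 and 4544 CPM against 224 and 767 CPM in fibroblasts, but it was part of the limit that chose the set. Clu, the chaperone clusterin, was at 2907 and 2780.4 against 101 and 18.1 CPM, and Enpp2, which makes lysophosphatidic acid, at 982 and 1296 against 67.2 and 168 CPM. Mfge8 was at 1679 and 2169 against 192 and 183 CPM, Apoe at 4244 and 18785 against 967 and 785 CPM, and Des at 128 and 332 against 3.05 and 1.42 CPM. In the neither set Clu was at 232 and 23.7 CPM, Enpp2 at 596 and 183 and Mfge8 at 949 and 515 CPM. Apoe was at 717 and 633 and Des at 384 and 473 CPM there, so Des was higher than in the stromal-bearing set. Endothelium held 2681 and 3024 CPM of Clu. Tnfsf11, the cytokine RANKL, was at 42.7 and 103 against 0 and 0 CPM. The chemokines Ccl19 and Ccl21a, which draw lymphocytes, were at 175 and 1766 and 0 and 6876 CPM, with Ccl21a in the library labelled Fgd5-ko alone. The fibroblast genes Pdgfra and Pi16 were present, at 337 and 392 and 1243 and 437 CPM against 336 and 417 and 2683 and 1853 CPM. These genes were chosen after their values were seen.

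A further 13 endothelial-bearing barcodes, all under the Fgd5-ko label, carried 10 or more UMIs of Cd14 and Glycam1, and 0 of 134 did in the library labelled WT. Each of the 13 had Kcnj8, at 202 CPM against 7.22 CPM in the endothelial class of that library. Abcc9 was in 2, Higd1b in 0, Pdgfrb in 1, and Notch3 and Agt in 0 of them. They carried Prox1 and Lyve1, the lymphatic endothelial factor and hyaluronan receptor, at 404 and 1369 CPM against 86.4 and 449 CPM. The lymphatic gene Ccl21a went the other way, in 2 of the 13 at 5.61 against 2891 CPM, and Glycam1 was at 17944 against 62152 CPM. Madcam1, an adhesion molecule for lymphocytes, was at 567 against 78.2 CPM, Coch at 934 against 169 CPM and Cd14 at 3709 against 339 CPM. Rgs5 was at 331 against 123 CPM and Rgs4, a related regulator that pericytes and smooth muscle also carried, at 926 against 127 CPM and in all 13. Of the mural genes that did not choose these barcodes, Rgs5 and Rgs4 were thus present, while Agt and Notch3 were at 0 UMIs. Higd1b, a rule gene, was at 0 UMIs too. Their median depth was 24545 UMIs. In the endothelial class 191 of 1184 and 54 of 302 barcodes met the same limit on Cd14 and Glycam1.

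The libraries were compared over all pericytes and again in the neither set. Of 2854 genes that averaged 50 CPM or more over both pericyte sums, 178 (6.24%) were at least 2-fold higher in the library labelled Fgd5-ko and 122 (4.27%) lower, with a median of -0.05. In the neither set 289 of 2633 (11%) were higher and 246 (9.34%) lower, with a median of -0.02, at 22 barcodes in that library. Of the higher genes 44 were shared, 24.7% of the first list and 15.2% of the second, and of the lower genes 71, 58.2% and 28.9%. Composition differed between the libraries, as the counts of the sets show, and depth differed too, so genotype, composition and library cannot be told apart. Fewer cells of a type and less RNA a cell cannot be told apart in these sums either.

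Genes of the 13 barcodes and of the stromal-bearing set were among the leading higher genes. These were Ccl20, Ccl21a, Coch, Cd14, Ltb, Rgs2, Gdpd3, Cxcl9, Il4i1, Serpina3g, Glycam1 and Csf3. Ccl20, a chemokine for CCR6-bearing cells, was at 0 and 845 CPM, a ratio of at least 8.67, and at 0 and 0 CPM in the neither set. Ccl21a had a ratio of 8.19 (7.26 to 9.32), Coch 8.18 (5.69 to 13.49), and Glycam1 5.16 (4.92 to 5.4). Without barcodes that bear Cd14 or Glycam1 the Glycam1 ratio turned to -2.49, and 93 genes were higher in place of 178. That limit removes barcodes by their Glycam1 UMIs, so the turn of the Glycam1 ratio tests nothing. Of the 12 genes 3 could be tested in the neither set and 2 were called there, Rgs2 and Gdpd3.

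Rgs2, another regulator of G protein signalling, was at 14.5 and 753 CPM in all pericytes and 10.4 and 260.3 CPM in the neither set, ratios of 5.7 (5.08 to 6.39) and 4.65 (3.01 to 6.98). The same direction was seen in endothelium (3.00) and smooth muscle (1.52). Gdpd3, a glycerophosphodiester phosphodiesterase family member, was at 4.84 and 210.3 CPM, a ratio of 5.44 (4.39 to 6.77), with at least 4.09 in the neither set, 6.22 in endothelium and 4.7 in smooth muscle. Both genes therefore differed between the libraries in classes beyond the pericytes. Among all genes tested over all members, 6.24% were higher and 4.27% lower. Of 26 immediate early genes 7 were higher and 0 lower, with a median of 0.78. Jun was at 3000.3 and 7237 CPM in pericytes with a ratio of 1.27 (1.22 to 1.32), and a ratio of 1.49 in endothelium. Of 21 chemokine and cytokine genes 15 were higher and 0 lower over all members, with a median of 1.61. Of 13 tested in the neither set 5 were higher (Ccl2, Ccl11, Il6, Nfkbia and Irf1) and 2 lower (Cxcl12 and C3), with a median of 0.72. There 11% of all genes were higher and 9.34% lower. Cxcl10, an interferon-induced chemokine, was at 180.4 and 1786 CPM, 187 and 272 CPM in the neither set and 314 and 1312 CPM in endothelium. Cxcl1, a neutrophil chemokine, was at 1326 and 2900.2, 1859.8 and 3668 and 625 and 1333 CPM in the same order.

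In the neither set itself the leading higher genes included Plekhf1, Tnfaip6, Antxr1, Rgs2, Fxyd6, Gdpd3, Adap2, Jaml, Zfp655, Lmod1 and Nup98. The leading lower genes were Ly6a, Rgcc, Ctla2a, Cd200, Egfl7, Polr2l, AW112010, Ramp2, Fam198b, Itm2a, Ly6c1 and Arhgap31. Ly6a, Egfl7 and Ramp2 are known from endothelium, whose markers were also lower in that set. Egfl7 was at 447 and 17.8 CPM there and at 1538 and 1585 CPM in the endothelial class. The limit on endothelial UMIs was not scaled to depth, and its part in these ratios was not tested.

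The lower genes were Lgals7, Gm5, Polr2l, Gstp1, Usmg5, Cd200, Erh, Smim27, Hopx, Pet100, 2310001H17Rik and Rnaset2b. Of these 10 could be tested in the neither set and all 10 were called there. Gstp1, a glutathione transferase with a near-identical neighbour copy, had a ratio of -2.43 (-3.02 to -1.88) in pericytes, -2.53 in endothelium and -2.87 in smooth muscle. Polr2l, a shared RNA polymerase subunit, had -2.6 (-3.15 to -2.08), -2.6 and -2.36, and Usmg5, an ATP synthase subunit, -2.37 (-2.66 to -2.08), -1.98 and -1.85. These differences were of like size in all 3 classes. Ebf1, a transcription factor of mural and stromal cells, was at 1875 and 636 CPM, a ratio of -1.56 (-1.66 to -1.46), with -1.14 in the neither set and -1.08 in endothelium.

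Of 18 mural identity genes tested between the libraries over all members 6 were lower (Cox4i2, Ebf1, Art3, Cd248, Pcp4l1 and Aspn) and 0 higher, with a median of -0.46. Over all genes 4.27% were lower and 6.24% higher. Of 18 tested in the neither set 1 was lower (Ebf1) and 1 higher (Colec11), with a median of -0.05, where 9.34% of all genes were lower and 11% higher. Kcnj8 had a ratio of -0.10 (-0.29 to 0.09), Rgs5 -0.24 (-0.36 to -0.11) over all members and 0.34 (0.11 to 0.57) in the neither set, and Agt -0.18 (-0.48 to 0.12). Higd1b, a rule gene, stood at -1.29 (-1.57 to -1.02), with -0.46 (-0.97 to 0.04) in the neither set and few of its UMIs in the stromal-bearing set. Ednrb stood at -0.90 (-1.04 to -0.77) without reaching 2-fold. Acta2 was -0.57 (-0.71 to -0.43) over all members and 1.2 (1.01 to 1.4) in the neither set, so the 2 settings gave opposite directions. The interval does not cover the uneven spread of Acta2 over the barcodes of the neither set. Fgd5 itself had a ratio of 0.58 (0.13 to 1.04) over all pericytes and 0.67 (0.21 to 1.14) in the endothelial-bearing set. It was at 13.9 and 0 CPM in the neither set and 62.8 and 99.7 CPM in the endothelial-bearing set. Between the sets it was thus higher where the endothelial markers were. Between the libraries the endothelial list did not rise with it, at 4943 and 4380 CPM over all pericytes.

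**Figure D5:**
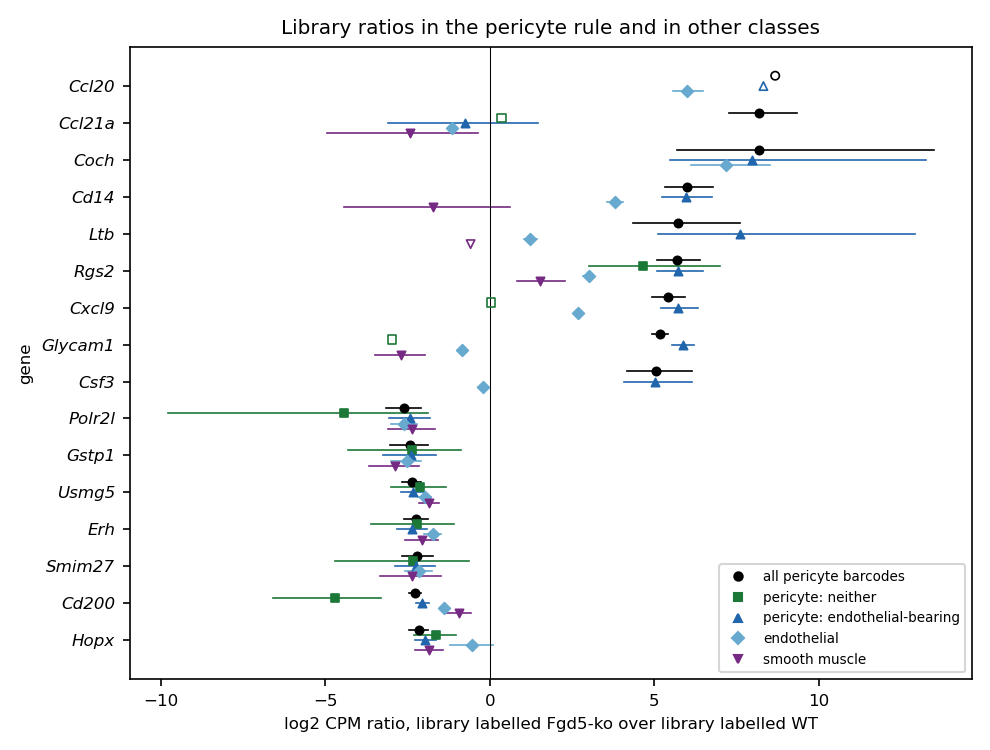
Log2 CPM ratio between the libraries, Fgd5-ko label over WT label (x axis), for named genes (y axis), with 95% counting intervals as lines and bounds as open symbols. Gstp1, Polr2l and Usmg5 lie below 0 in every class drawn. Glycam1 is above 0 only over all pericytes and in the endothelial-bearing set, which here holds the 13 barcodes with Cd14 and Glycam1.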

How the data were processed

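Single-cell RNA of 2 libraries of sorted mouse mammary cells, 1 labelled WT and 1 labelled Fgd5-ko, was used as the deposited matrices of UMI counts for 31053 genes in 10735 and 8798 barcodes. Per the file headers the matrices were written by software version 3.1.0, and mm9, Cell Ranger and Seurat 3.0 are listed, per the submitters' processing notes. Any filter of the authors on barcodes is not stated in the sources used here. Their deposited t-SNE coordinates, coordinates with no unit, served only to look barcodes up.

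Counts were summed over the barcodes of a class and given as CPM, with exact Poisson, Clopper-Pearson and conditional binomial intervals at 95%, which cover counting error only. A gene at 0 UMIs in 1 sum was set to 3 counts, which makes its ratio a bound, and no ratio was formed where both counts were 3 or fewer. Called means at least 2-fold, in each library for classes and in 4 sets for the states, among genes that averaged 50 CPM or more over the sums compared. Shares with a UMI were taken after thinning each barcode to 2000 UMIs. Named genes are the rule genes, the markers and the 12 highest and 12 lowest called genes of a comparison; other genes named outside the lists were chosen after their values were seen. A few genes under these rules are not reported here. The members and lists were chosen with earlier results of these data known. Endothelial and fibroblast classes were formed from marker UMIs, doublets were not called, and no test between libraries was possible with 1 library each. Alternatives covered the UMI limits, the depth range, the mitochondrial limit, the CPM minimum, mean CPM per barcode and TMM factors (edgeR 4.0.16, R 4.3.3). Promoters came from RefSeq (GRCm38.p6). The software was SciPy 1.17.1, NumPy 2.4.6 and pandas 2.3.3 under Python 3.11.15, with figures by matplotlib 3.10.9, and the interval and ratio functions were tested on simulated data.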

Additional observations from a re-analysis of the deposited data

Results flagged for a closer look

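Barcodes that met the pericyte limits but for their Krt5 and Krt14 UMIs lie outside every comparison of the report. They numbered 22 in the library labelled WT and 32 in the library labelled Fgd5-ko, with a median of 9489.5 and 27131.5 UMIs, 6 and 5.5 pericyte UMIs and 16.5 and 47 keratin UMIs. Rgs5, which the rule does not use, was at 355 and 406 CPM in them, Krt14 at 1582 and 1327 CPM and Pecam1 at 180.0 and 106 CPM. At least 5 endothelial UMIs were in 10 and 8 of them.

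Rgs2 went opposite ways in the libraries when pericytes were set against smooth muscle, with a log2 ratio of -1.52 in the library labelled WT and of 2.65 under the Fgd5-ko label. In the neither sets it also did, at -2.52 and 1.39. Of the 1472 UMIs of Rgs2 in pericytes under the Fgd5-ko label, 1289 lay in endothelial-bearing barcodes. Of these 1289, 32 lay in Rgs5-led and 14 in Ednrb/Agt-led barcodes. The rest lay in the 13 with Cd14 and Glycam1 and in 2 undecided barcodes, so the ratio of 2.65 leans on few barcodes. The difference between these ratios was not tested, since each library is a single sample.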

How the results depend on the processing

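No paired analysis was possible because each genotype has 1 library. The share of barcodes that met the rule was 3.36% and 2.36% with at least 2 pericyte UMIs, 1.16% and 1.37% with at least 5, 2.77% and 3.27% among barcodes of 4000 to 12000 UMIs, 0.619% and 0.574% without barcodes that had UMIs of other types and 0.719% and 0.287% for the neither set. With a minimum of 20 CPM, which tests more genes, 582 genes were higher and 305 lower in pericytes than in smooth muscle and 420 exceeded 2-fold under the Fgd5-ko label. With 200 CPM, which tests fewer, the counts were 65 and 52 for the classes and 49 and 46 for the libraries. In the neither set 164 genes were higher in pericytes, and 289 were higher and 246 lower in the library labelled Fgd5-ko. That library had 184 lower genes among barcodes of 4000 to 12000 UMIs, 269 higher and 328 lower without barcodes with UMIs of other types, 109 higher in the endothelial-bearing set with fewer than 10 UMIs of Cd14 and Glycam1, and 93 higher without barcodes with Cd14 or Glycam1. The other counts stayed within 1.5 times, and within a single library 345 to 406 genes were higher and 204 to 246 lower in pericytes.

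Rgs5 had a UMI in 55.8% and 50% of pericytes at 4000 UMIs, 64.5% and 58.2% without thinning and 25.5% of the library labelled Fgd5-ko at 1000 UMIs. Agt had one in 27.6% and 25.7% at 4000 UMIs, 31.4% and 31.9% without thinning and 9.92% of the library labelled WT at 1000 UMIs.

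Of 683 values of 64 genes against smooth muscle 2 changed sign, Fabp4 at -0.24 without barcodes with UMIs of other types and Ednra at 0.10 in the neither set. Of 373 values of 39 genes between the libraries 10 did. Glycam1 was at -2.25 among barcodes of 4000 to 12000 UMIs, -4.13 without barcodes with UMIs of other types and -2.96 in the neither set. It was at -2.21 in the endothelial-bearing set with fewer than 10 UMIs of Cd14 and Glycam1. Without barcodes with Cd14 or Glycam1 it was at -2.49. Il4i1 was at -1.72 among barcodes of 4000 to 12000 UMIs. In the endothelial-bearing set with fewer than 10 UMIs of Cd14 and Glycam1, Il4i1 was at -0.68, Ccl21a at -1.26, Cd14 at -0.77 and Csf3 at -1.53. Limits on Cd14 and Glycam1 remove barcodes by these genes, so the turns of Cd14 and Glycam1 under them test nothing. The cause of the sign changes was not tested. The neither set, the state limits and the Cd14 and Glycam1 limit were chosen after seeing the data, and the 22 barcodes of the neither set in the library labelled Fgd5-ko limit what it can show.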
